A study of Mus musculus with 12 samples.

Results

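The 9 genes described here, Stat2, Irf9, Irf1, Irf7, Isg15, Ifit1, Bst2, Ifi35 and Usp18, are components and targets of the interferon response, and were taken by name from a table of 24453 genes in pro-erythroblasts (Pro-E) sorted from mouse bone marrow. Polyadenylated RNA was sequenced in 12 libraries, 3 in each of 4 groups of mice, and each library pools Pro-E of more than 1 mouse. The labels name the strain C57BL6 for every group, whereas the methods mention a mixed background, and its part in the genotype comparisons was not tested. β-Thalassemic (Hbb th1/th1) and WT mice each received apoTf or PBS, and both alleles of an adult β-globin gene are deleted in the β-thalassemic mice. ApoTf is human transferrin that carries no iron. ApoTf was given at 10 mg per injection (400 mg/kg per day) for 20 days, PBS was injected in equal volume, and cells were collected 3 days after the last injection from mice labelled 5 months old. A phlebotomy is described in the labels of all groups, and it is unclear if it applied to the mice used here. No group was given interferon, so the 9 genes were compared by genotype and by apoTf only.

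Type I interferons bind the receptor pair Ifnar1 and Ifnar2, whose kinases Jak1 and Tyk2 phosphorylate Stat2. Phosphorylated Stat2 joins Irf9 in a complex, ISGF3, that binds the interferon-stimulated response element (ISRE) in the promoters of target genes, while interferon-γ acts mainly at a different element, the GAS site. Interferon-γ is known to restrain erythropoiesis, and interferon target genes serve widely as a readout of interferon exposure.

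Of the 9 members, 7 were at or above 1 FPKM (fragments per kilobase of exon, scaled to the reads of each library) in all 12 libraries, Irf1 was in 3 and Ifit1 in none. Groups were compared with limma, a linear model fitted across genes, on log2(FPKM + 0.5) for the 9650 genes that reached 1 FPKM in at least 3 libraries, a filter that 8 members passed. No member had an adjusted p under 0.05 between any groups in this fit. Bst2 and Irf9 did between the apoTf-treated groups once those were paired by replicate number, as did 2.21% of the 9650 genes. That pairing was picked from these same libraries and is not in the labels. No member passed without replicate 3, or with numbers paired over all 12 libraries. The transducer Irf9 averaged 24.1 ± 2.36 FPKM in β-thalassemic and 20.2 ± 1.82 FPKM in WT Pro-E over both treatments (SD, n = 6 libraries each), and its partner Stat2 averaged 3.86 ± 0.473 FPKM in β-thalassemic and 4.62 ± 0.449 FPKM in WT Pro-E. Both differences had p under 0.05 in an exact permutation test of the gene by itself (0.01 for Irf9 and 0.03 for Stat2). In that test 3.33% of the 9650 genes had such a p, and neither difference was past adjustment over all genes tested. With single libraries left out in turn, the exact p of Stat2 rose to as much as 0.08. Ifit1 averaged 0.541 ± 0.131 FPKM after apoTf and 0.304 ± 0.152 FPKM after PBS (SD, n = 6 each), at a level too low for the test across genes.

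Promoters of the members were read from RefSeq (GRCm38.p6) as 300 bases each, 250 before the start of transcription to 50 after it, to show which members carry the element that ISGF3 binds. The table held promoters for 8 of the 9 members (10 sequences, since Irf1 and Irf9 have a second start), and Usp18 had no entry. The ISRE core was searched as GAAANNGAAA on both strands, where the reverse strand reads TTTCNNTTTC. It lay in the promoters of 4 members, Isg15, Ifit1, Bst2 and Stat2, against 3.44% of all 32851 promoters in the table. These 4 are shown over 100 bases in the direction of transcription, with matches in capitals.
Isg15: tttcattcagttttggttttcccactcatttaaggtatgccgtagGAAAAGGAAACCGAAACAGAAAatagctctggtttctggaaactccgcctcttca
Ifit1: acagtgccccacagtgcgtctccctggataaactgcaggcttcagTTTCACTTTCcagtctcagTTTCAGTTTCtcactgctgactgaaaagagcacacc
Bst2: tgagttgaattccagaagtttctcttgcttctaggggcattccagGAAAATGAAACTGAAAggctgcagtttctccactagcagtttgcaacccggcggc
Stat2: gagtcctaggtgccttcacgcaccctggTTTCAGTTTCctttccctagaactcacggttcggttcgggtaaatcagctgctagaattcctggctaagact

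The Isg15 stretch (chr4:156200842-156200941, minus strand) holds 3 overlapping matches, and that of Bst2 (chr8:71537548-71537647, minus strand) holds 2 overlapping matches. The Ifit1 stretch (chr19:34640740-34640839, plus strand) holds 2 separate matches on the reverse strand, and that of Stat2 (chr10:128270248-128270347, plus strand) holds 1 on the reverse strand. The GAS core, TTCNNNGAA, reads the same on both strands and lay in promoters of 3 members, Irf1, Ifi35 and Bst2, against 8.30% of all promoters, and in Bst2 it overlaps an ISRE match. In Irf7 and Irf9 neither set of letters occurred in these windows. These matches describe the sequence only.

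The 12 libraries rested on 33400000 to 51600000 reads, as read from the steps that 1 read makes in FPKM. Grouping followed the library titles, because tag and title name opposite genotypes in every library, and Hbb-b1 was at 97.5 to 204 FPKM in libraries titled β-thalassemic and at 722 to 3241 FPKM in those titled WT. PBS WT replicate 1 stood apart, with a median Spearman correlation over genes of 0.867 with the other libraries, where those had 0.982 to 0.990. It also had the fewest reads, 33400000, and the lowest sum of the 10 erythroid markers, 1954 FPKM, against 2417 FPKM or more in the others. The erythroid markers Tfrc and Klf1 averaged 374 and 140 FPKM. Markers of plasmacytoid dendritic cells (a main source of type I interferon), B cells and T or NK cells summed to at most 0.444, 0.320 and 0.356 FPKM in any library, and those of macrophages (12 genes) to at most 3.15 FPKM, of which Cd68 alone passed the filter. The 10 neutrophil markers summed to 0.888 to 12.03 FPKM in β-thalassemic and 2.79 to 50.8 FPKM in WT libraries. The 5 megakaryocyte markers had sums of 5.86 to 11.4 FPKM in β-thalassemic libraries and of 6.11 to 15.6 FPKM in WT ones. Of these megakaryocyte markers Gp9 alone passed the filter, at a mean of 8.36 FPKM, and the others averaged 0.563 FPKM (Itga2b) or less. The part of these cells in the values below was not tested. Fewer cells of a type and less RNA per cell cannot be told apart in these bulk samples.

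**Figure D1:**
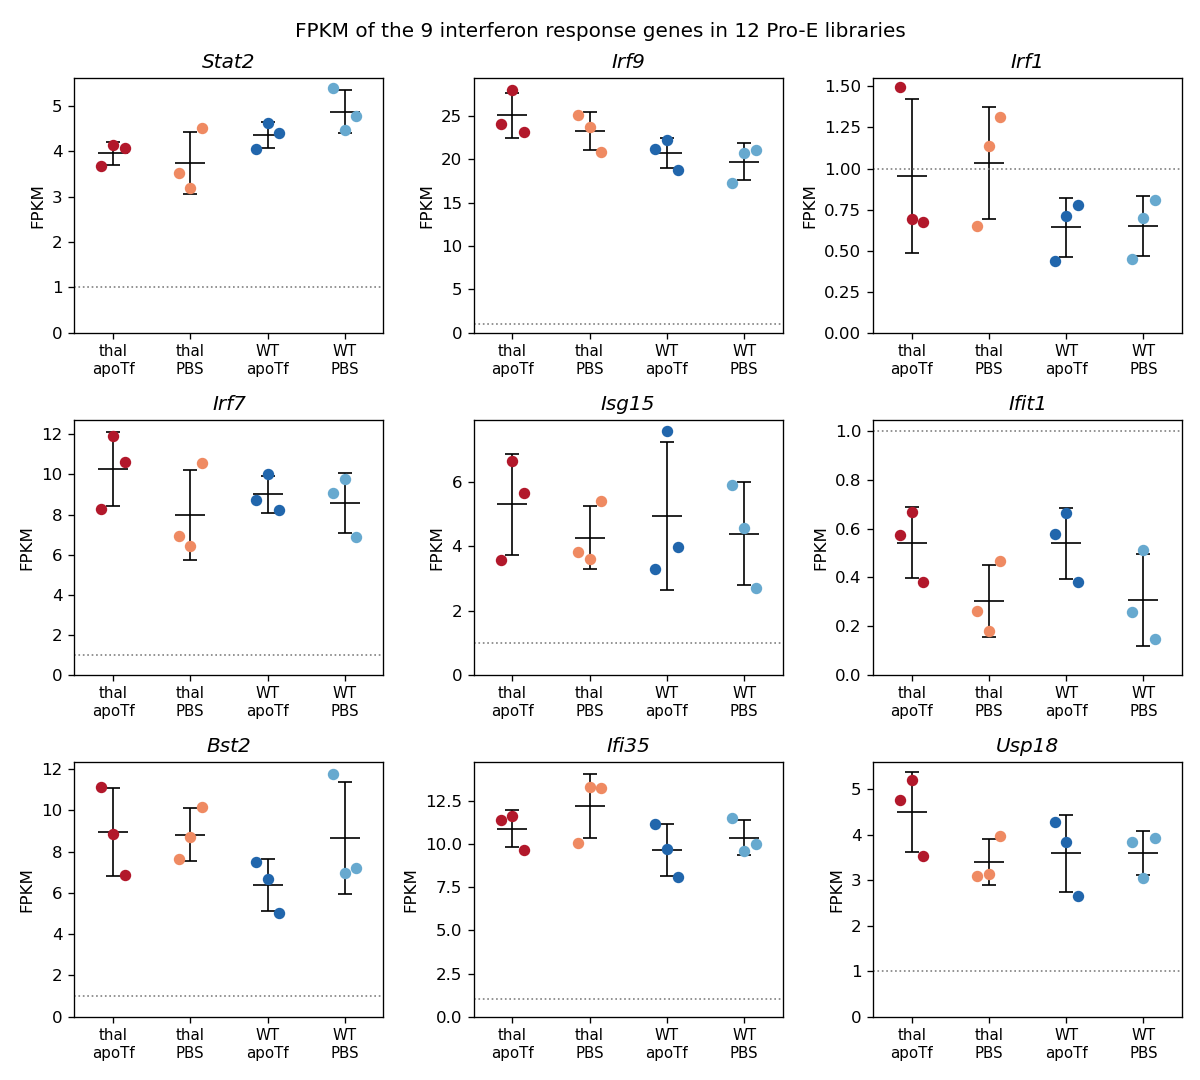
FPKM of each member (vertical axes from 0) in apoTf-treated and PBS-injected β-thalassemic (thal) and WT Pro-E; points are libraries in order of replicate number, horizontal lines and bars are the mean and SD of 3 libraries, and the dotted line marks 1 FPKM. Irf9 lies highest of the 9, at 17.3 to 28.0 FPKM, and Ifit1 stays under 1 FPKM in every library.

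Across genes, FPKM being per length of exon, the members ordered by their mean over 12 libraries as Irf9 (22.2 FPKM), Ifi35 (10.8), Irf7 (8.96), Bst2 (8.21), Isg15 (4.73), Stat2 (4.24), Usp18 (3.77), Irf1 (0.820) and Ifit1 (0.423). The ranges over libraries of Ifi35, Irf7 and Bst2 overlapped, as did those of Irf7 and Isg15. So did the ranges of Bst2, Isg15, Stat2 and Usp18, and those of Irf1 and Ifit1. These ranges ignore that members share libraries, and differences between members within a library were not tested. Irf9 was above all other members in every library. The median gene that passed the filter was at 8.95 FPKM, beside 8.96 FPKM for Irf7. Ifit1, among the most inducible interferon targets, was the lowest of the members.

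Stat2, the STAT particular to type I and type III interferon signalling (chr10:128270559-128292849, plus strand, GRCm38), was at 3.67, 4.14 and 4.08 FPKM in apoTf-treated β-thalassemic libraries and at 3.53, 3.20 and 4.51 FPKM in β-thalassemic libraries given PBS. In WT libraries it was at 4.06, 4.62 and 4.40 FPKM after apoTf and at 5.39, 4.47 and 4.78 FPKM after PBS. The lowest value belonged to a β-thalassemic and the highest to a WT library, and the genotypes overlapped at 4.06 to 4.51 FPKM. Over both treatments the log2 fold change of β-thalassemic over WT was -0.24 ± 0.10 (SE; 95% interval -0.46 to -0.01; limma adjusted p = 0.904). The exact permutation test of 6 libraries against 6, with labels permuted within a treatment, gave p = 0.03, where 0.005 is the smallest p it allows. That p was 0.08 without PBS WT replicate 1, 0.065 without PBS WT replicate 3, 0.06 without apoTf-treated WT replicate 2 and 0.055 without apoTf-treated WT replicate 3, with log2 differences of -0.20, -0.24, -0.22 and -0.23. After PBS alone, β-thalassemic over WT gave -0.35 ± 0.15 (95% interval -0.67 to -0.03; limma adjusted p = 0.528).

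Irf9, the DNA-binding partner of Stat2 in ISGF3 (chr14:55603571-55610030, plus strand), was at 24.0, 28.0 and 23.1 FPKM in apoTf-treated β-thalassemic libraries and at 25.1, 23.8 and 20.8 FPKM in those given PBS. WT libraries held 21.2, 22.2 and 18.8 FPKM after apoTf and 17.3, 20.8 and 21.1 FPKM after PBS. Of 6 β-thalassemic libraries 5 lay above every WT library, and PBS β-thalassemic replicate 3 lay among them. The log2 fold change of β-thalassemic over WT was 0.25 ± 0.10 over both treatments (SE; 95% interval 0.03 to 0.47; limma adjusted p = 0.904), and the exact permutation test of 6 against 6 gave p = 0.01. Leaving out any single library kept that exact p between 0.005 and 0.025, with the difference at 0.21 to 0.29. After apoTf all 3 β-thalassemic libraries lay above all 3 WT libraries, with a log2 fold change of 0.27 ± 0.14 (limma adjusted p = 1.00; exact p = 0.1, the smallest that 3 against 3 allows), as in 11.6% of the 9650 genes tested, in either direction. With these 2 groups alone paired by replicate number, the limma adjusted p was 0.048, but 0.126 without replicate 2 and 0.152 without replicate 3, and it was 1.00 with the block in all 12 libraries. The 5′ end of Irf9 overlaps Rnf31 on the same strand, a gene at a mean of 8.0 FPKM, and reads over the shared exon sequence cannot be assigned with certainty.

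Taking the exact test of 6 against 6 over all 9650 genes tested, 3.33% had p under 0.05 for genotype and 4.94% for apoTf. Among the 18 such tests of the 9 members, 3 did, those of Stat2 and Irf9 for genotype and that of Ifit1 for apoTf. Ifit1 is not among the 9650 genes, so the 4.94% is not a share for it. No member that passed the filter had p under 0.05 for apoTf in this test. The differences of Stat2 and Irf9 had opposite signs, and the contrast between these genes was not tested.

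Irf1, a transcription factor induced mainly by interferon-γ (chr11:53770014-53778374, plus strand), was at 1.496, 0.690 and 0.675 FPKM in apoTf-treated β-thalassemic and at 0.650, 1.14 and 1.31 FPKM in PBS-injected β-thalassemic libraries. In WT libraries it was at 0.439, 0.712 and 0.778 FPKM after apoTf and at 0.446, 0.696 and 0.806 FPKM after PBS. The 3 libraries at or above 1 FPKM were all β-thalassemic, and the other 3 β-thalassemic libraries lay within the range of WT. Because Irf1 entered the test only through these 3 libraries, its difference is a description: the means were 0.993 ± 0.371 FPKM in β-thalassemic and 0.646 ± 0.163 FPKM in WT Pro-E (SD, n = 6 each), which rest on about 31 to 136 reads per library.

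Irf7, the factor that amplifies type I interferon production (chr7:141262706-141266481, minus strand), was at 8.26, 11.9 and 10.6 FPKM in apoTf-treated β-thalassemic and at 6.92, 6.43 and 10.6 FPKM in PBS-injected β-thalassemic libraries. WT libraries held 8.73, 10.0 and 8.24 FPKM after apoTf and 9.07, 9.78 and 6.90 FPKM after PBS. PBS β-thalassemic replicate 3 was as high as the apoTf-treated libraries, so that the groups overlapped. The log2 fold change of apoTf over PBS was 0.36 ± 0.21 in β-thalassemic Pro-E (95% interval -0.09 to 0.82; limma adjusted p = 1.00) and 0.07 ± 0.21 in WT Pro-E (limma adjusted p = 0.825). With 1 library left out in turn, these effects ranged from 0.23 to 0.57 and from -0.07 to 0.17. The difference between these effects was 0.29 ± 0.29 (limma adjusted p = 0.764). Irf7 overlaps the opposite-strand gene Phrf1 at its 3′ end, at a mean of 19.5 FPKM, and counting did not use strand.

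Isg15, a ubiquitin-like modifier and secreted cytokine (chr4:156199424-156200818, minus strand), was at 3.58, 6.67 and 5.67 FPKM in apoTf-treated β-thalassemic and at 3.82, 3.60 and 5.41 FPKM in PBS-injected β-thalassemic libraries. In WT libraries it was at 3.30, 7.60 and 3.98 FPKM after apoTf and at 5.91, 4.58 and 2.70 FPKM after PBS. Both extremes were WT libraries, and no group stood apart. Its SD within groups was 0.461 on the log2 scale, more than in 87.3% of the genes tested, so its intervals were the widest of the members. The log2 fold change of apoTf over PBS was 0.26 (95% interval -0.45 to 0.98) in β-thalassemic Pro-E and 0.13 (-0.58 to 0.85) in WT Pro-E. Leaving out 1 library moved the first to between 0.09 and 0.50 and the second to between -0.19 and 0.36, so that its direction in WT rested on single libraries.

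Ifit1, which binds viral RNA that lacks a host cap (chr19:34640871-34650009, plus strand), was at 0.573, 0.670 and 0.382 FPKM in apoTf-treated β-thalassemic libraries, against 0.262, 0.178 and 0.468 FPKM in β-thalassemic libraries given PBS. It was at 0.578, 0.662 and 0.379 FPKM in apoTf-treated WT libraries, against 0.259, 0.513 and 0.146 FPKM in WT libraries given PBS. In each genotype 2 of 3 apoTf-treated libraries lay above all 3 PBS libraries, and the remaining one overlapped them. The ratio of means of apoTf over PBS was 1.79 in β-thalassemic and 1.76 in WT Pro-E, from about 17 to 91 reads per library. The difference over both genotypes was 0.38 on the log2(FPKM + 0.5) scale with an exact permutation p = 0.03. When genes with low values were kept in the fit, the 95% interval of this difference was 0.08 to 0.69 and the limma adjusted p was 0.754, in a contrast in which 0.0111% of 17977 genes passed. Leaving out 1 library raised the exact p to 0.055 (apoTf-treated β-thalassemic replicate 2), 0.05 and 0.06 (PBS β-thalassemic replicates 1 and 2), 0.06 and 0.07 (apoTf-treated WT replicates 1 and 2), or 0.06 and 0.065 (PBS WT replicates 1 and 3). The difference itself stayed between 0.31 and 0.47 in those and the other libraries left out in turn.

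Bst2, or tetherin, which holds budding virus at the cell surface (chr8:71534255-71537456, minus strand), was at 11.1, 8.85 and 6.86 FPKM in apoTf-treated β-thalassemic and at 7.62, 8.72 and 10.2 FPKM in PBS-injected β-thalassemic libraries. In WT libraries it was at 7.48, 6.67 and 5.03 FPKM after apoTf and at 11.8, 6.96 and 7.22 FPKM after PBS. The WT value of 11.8 FPKM was the highest of all and came from replicate 1, the library that stood apart. The log2 difference of β-thalassemic over WT over both treatments was 0.25 (exact permutation p = 0.2), and without that library it was 0.37 (exact p = 0.03). With each library left out in turn it ranged from 0.17 to 0.37, with an exact p of 0.03 to 0.36. After apoTf, β-thalassemic over WT gave 0.45 ± 0.23 (95% interval -0.07 to 0.96; limma adjusted p = 1.00). With these 2 groups alone paired by replicate number, all 3 pairs were higher in β-thalassemic Pro-E and the 95% interval was 0.32 to 0.58 (limma adjusted p = 0.0238). That adjusted p was 0.0585 without replicate 3 and 1.00 with the block in all 12 libraries.

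Ifi35, an interferon-induced leucine zipper protein (chr11:101448407-101458698, plus strand), was at 11.4, 11.6 and 9.66 FPKM in apoTf-treated β-thalassemic and at 10.0, 13.3 and 13.3 FPKM in PBS-injected β-thalassemic libraries. WT libraries held 11.2, 9.72 and 8.10 FPKM after apoTf and 11.5, 9.57 and 10.0 FPKM after PBS. Of the 6 β-thalassemic libraries 3 lay above every WT library. The log2 difference of β-thalassemic over WT was 0.20 over both treatments (95% interval -0.06 to 0.45; exact permutation p = 0.07), with an exact p of 0.03 without PBS β-thalassemic replicate 1 (0.26) and 0.04 without apoTf-treated WT replicate 1 (0.25). Over each library left out in turn the difference ran from 0.14 to 0.26 and the exact p from 0.03 to 0.175.

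Usp18, which removes Isg15 from proteins and blocks signalling at Ifnar2 (chr6:121245906-121270917, plus strand), was at 4.75, 5.21 and 3.52 FPKM in apoTf-treated β-thalassemic and at 3.08, 3.14 and 3.98 FPKM in PBS-injected β-thalassemic libraries. In WT libraries it was at 4.28, 3.84 and 2.66 FPKM after apoTf and at 3.84, 3.04 and 3.93 FPKM after PBS. The 2 highest libraries were apoTf-treated β-thalassemic and the lowest was apoTf-treated WT. The log2 fold change of apoTf over PBS was 0.35 ± 0.20 in β-thalassemic (95% interval -0.08 to 0.78; limma adjusted p = 1.00) and -0.02 ± 0.20 in WT Pro-E, and the difference between these effects was 0.37 ± 0.28 (limma adjusted p = 0.764). Leaving out 1 library moved the β-thalassemic effect to between 0.24 and 0.50 and the WT effect to between -0.14 and 0.16.

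**Figure D2:**
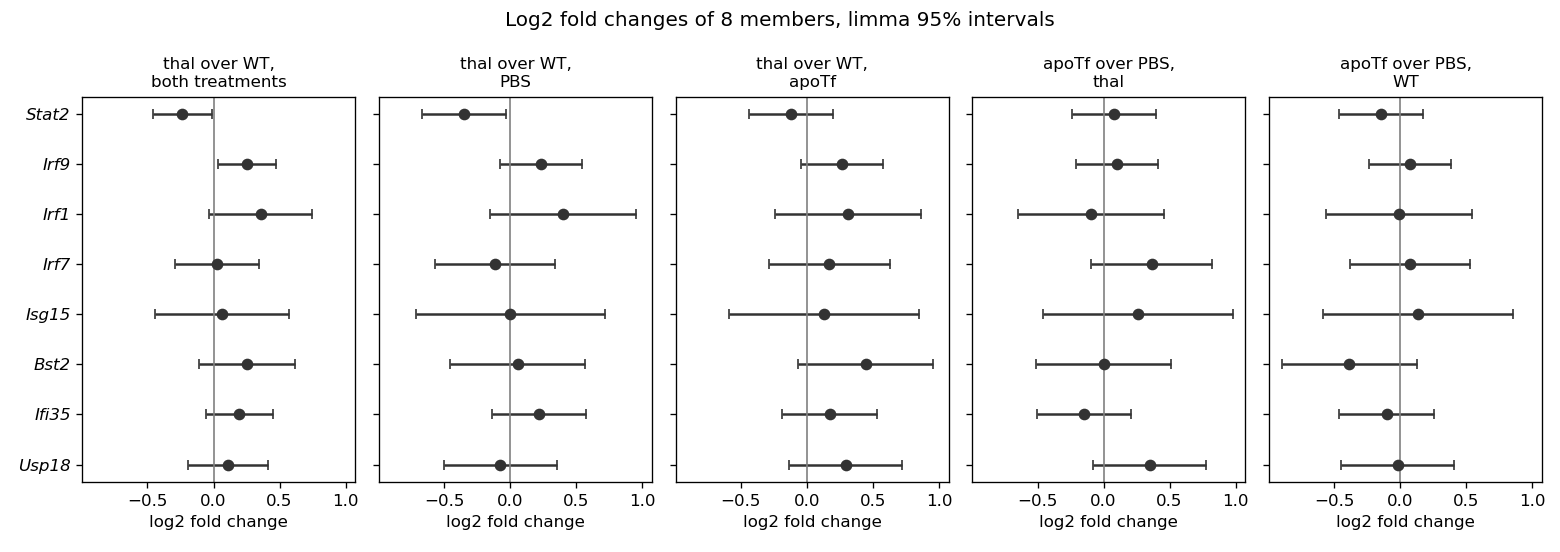
Log2 fold changes on the log2(FPKM + 0.5) scale (horizontal axes) of the 8 members that passed the filter, with 95% intervals from limma, for β-thalassemic (thal) over WT and for apoTf over PBS. Only Stat2 and Irf9 over both treatments, and Stat2 after PBS, have intervals that leave out 0, without pairing and before any adjustment over genes. Irf1 passed the filter only through β-thalassemic libraries, so its values for β-thalassemic over WT are a description.

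Without pairing by replicate number, no member passed in any of the 6 comparisons, and few of all genes did. Between β-thalassemic and WT Pro-E given PBS, 0 of 8 members and 0.259% of the 9650 genes passed the adjusted threshold of 0.05 in limma. At an unadjusted p under 0.05 there was 1 of 8 members, Stat2, and 7.66% of genes, and no member had groups without overlap, against 6.92% of genes. The members' median log2 fold change was 0.03, and 0.002 without Irf1, beside 0.08 over all genes. For apoTf over PBS in β-thalassemic Pro-E, 0 of 8 members passed, against 0.0311% of genes, 0 were at an unadjusted p under 0.05, against 1.43%, and 0 were without overlap, against 9.65%. Here the members' median was 0.09, beside 0.03.

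For apoTf over PBS in WT Pro-E, 0 of 8 members and 0% of genes passed, with 0 members and 10.2% of genes at an unadjusted p under 0.05, and 0 members and 10.9% of genes without overlap. The median was -0.01 for the members and 0.10 for all genes. Between apoTf-treated β-thalassemic and WT Pro-E, 0 members and 0.0415% of genes passed, 0 members and 1.41% had an unadjusted p under 0.05, and only Irf9 was without overlap, against 11.6% of genes. There the median was 0.22 for the members, and 0.17 without Irf1, beside 0.01 for all genes. Only in this comparison did same-numbered libraries vary together in 3 of 3 pairs, and the labels do not pair them. With the 2 groups alone paired by number, 2 of 8 members, Bst2 and Irf9, and 2.21% of genes passed. Both were higher in β-thalassemic Pro-E in 3 of 3 pairs, as were Ifi35 and Usp18, while Stat2 was lower in 3 of 3, and all 3 pairs went 1 way in 43.6% of genes. The calls came to 2, 1 and 0 members without replicates 1, 2 and 3, and to 0 members with the block in all 12 libraries. The pairing was read from these same libraries, so the paired calls are not independent of it.

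The effect of apoTf in β-thalassemic minus that in WT Pro-E passed in 0 members and 0% of genes, with 0 members and 4.9% of genes at an unadjusted p under 0.05. For β-thalassemic over WT over both treatments, 0 members and 0.155% of genes passed, and 2 members, Stat2 and Irf9, and 3.42% of genes had an unadjusted p under 0.05. No member separated all 6 β-thalassemic from all 6 WT libraries, as 0.373% of genes did. The members' median was 0.15 for that comparison, and 0.11 without Irf1, which entered through β-thalassemic libraries, beside 0.05 for all genes. The 4 pairwise comparisons share libraries, so they are not separate support for one another.

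**Figure D3:**
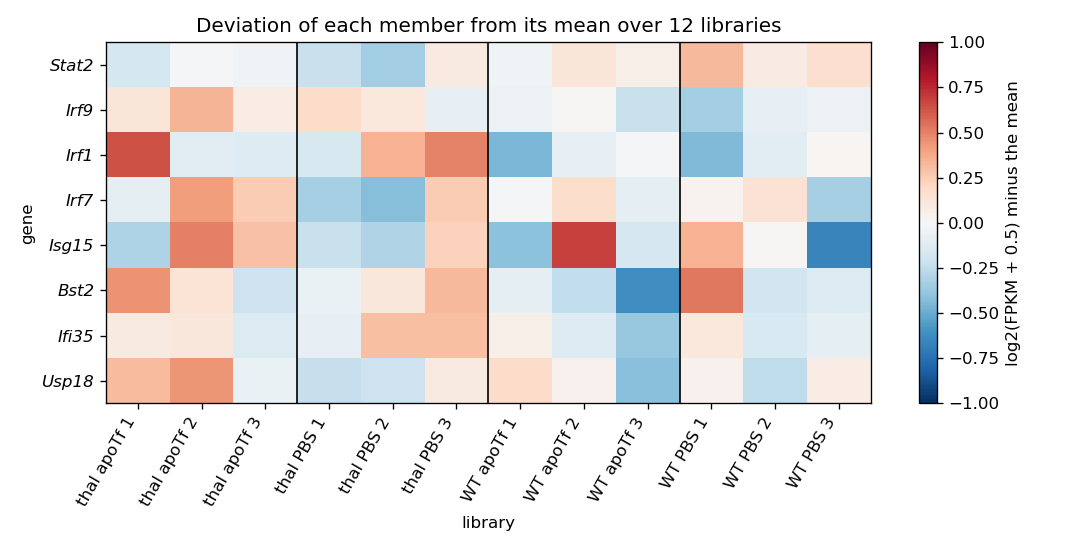
Deviation of log2(FPKM + 0.5) of 8 members (rows) from each gene's mean over 12 libraries (columns), with black lines between groups; red is above and blue below the mean. Bst2, Ifi35 and Usp18 vary alike between libraries of the same group, as do Irf7 and Isg15.

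Within groups, some pairs of members varied alike and others did not. Over the 28 pairs of 8 members, the Pearson correlation of deviations from the group mean had a median of 0.12 and ran from -0.47 for Stat2 with Irf9 to 0.82 for Bst2 with Ifi35 (12 libraries, described with no test, since all members share library and depth). Irf7 with Isg15 reached 0.80, Ifi35 with Usp18 0.79 and Bst2 with Usp18 0.73. Stat2 was at 0.72 with Irf7 and 0.66 with Isg15. Without PBS WT replicate 1 the high pairs stood, in the order named, at 0.83, 0.82, 0.80, 0.83, 0.73 and 0.59. Stat2 with Irf9 was then at -0.32. The within-group SD of Irf9 and Stat2 was 0.140 and 0.142 on the log2 scale, smaller than in all but 10.4% and 10.98% of the genes tested, against a median of 0.255.

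Outside the members and the interferon lists, the genes most like the members' mean standardized level over 12 libraries were Psmb5, a proteasome subunit (Pearson r = 0.76), Mir135a-1 (0.75), Tnpo2 (0.73), Tlcd2 (0.73) and Zdhhc18 (0.73). They were picked as the highest of all genes tested, with no test. The members themselves ran from 0.13 for Stat2, 0.31 for Irf1 and 0.34 for Irf9 to 0.80 for Usp18, so the mean level follows some members poorly. Among other genes of the interferon lists, Adar, the double-stranded RNA editing enzyme (0.84), and Oas1a, an activator of RNase L (0.79), were closest. Adar was at 12.7 to 17.9 FPKM and Oas1a at 1.29 to 3.49 FPKM.

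Upstream of the members, interferon genes were listed at 0 or well under 1 FPKM: of 17 ligand and receptor genes, 7 were at 0 in every library and 12 never reached 1 FPKM. Ifnb1 reached at most 0.032 FPKM, and Ifng was at 0. The receptors were expressed, with Ifngr1 at a mean of 24.4 FPKM, Ifnar2 at 14.3, the shared subunit Il10rb at 6.56 and Ifnar1 at 3.98, against 0.167 FPKM for the type III receptor Ifnlr1. The highest type I ligand was Ifnk, at a mean of 0.194 and at most 0.318 FPKM. All 5 JAK and STAT transducers passed the filter, among them Jak1 at 36.0, Jak2 at 28.1 and Tyk2 at 7.56 FPKM.

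Of 8 genes beyond the members that encode IRFs or IRF2-binding proteins, 5 passed the filter, led by the IRF2-binding protein Irf2bp2 (14.7 FPKM), Irf3 (14.1), the IRF2-binding protein Irf2bp1 (7.21) and the repressor Irf2 (6.76). Antiviral effectors passed in 37 of 56 genes, led by the exonuclease Isg20 (98.5 FPKM), the Isg15-conjugating enzyme Ube2l6 (52.8), Lgals3bp (45.7) and the RNA-binding Zc3hav1 (31.1). Among interferon-γ response and antigen display genes 17 of 30 passed, led by B2m (377 FPKM) and the class I heavy chains H2-D1 (85.1) and H2-K1 (58.3), then Psme1 (46.4). B2m was at 89.8 FPKM in PBS WT replicate 1, its lowest library. Negative regulators passed in 5 of 7 genes, with the phosphatases Ptpn11 (20.8 FPKM), Ptpn2 (16.7) and Ptpn6 (13.9) and the STAT inhibitor Pias1 (8.70), while the inducible suppressors Socs1 and Socs3 were at 0.0562 and 0.0192 FPKM. Sensors passed in 9 of 16 genes, led by Mavs (13.7), Tbk1 (10.4), Ifih1 (8.43) and Myd88 (7.45).

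**Figure D4:**
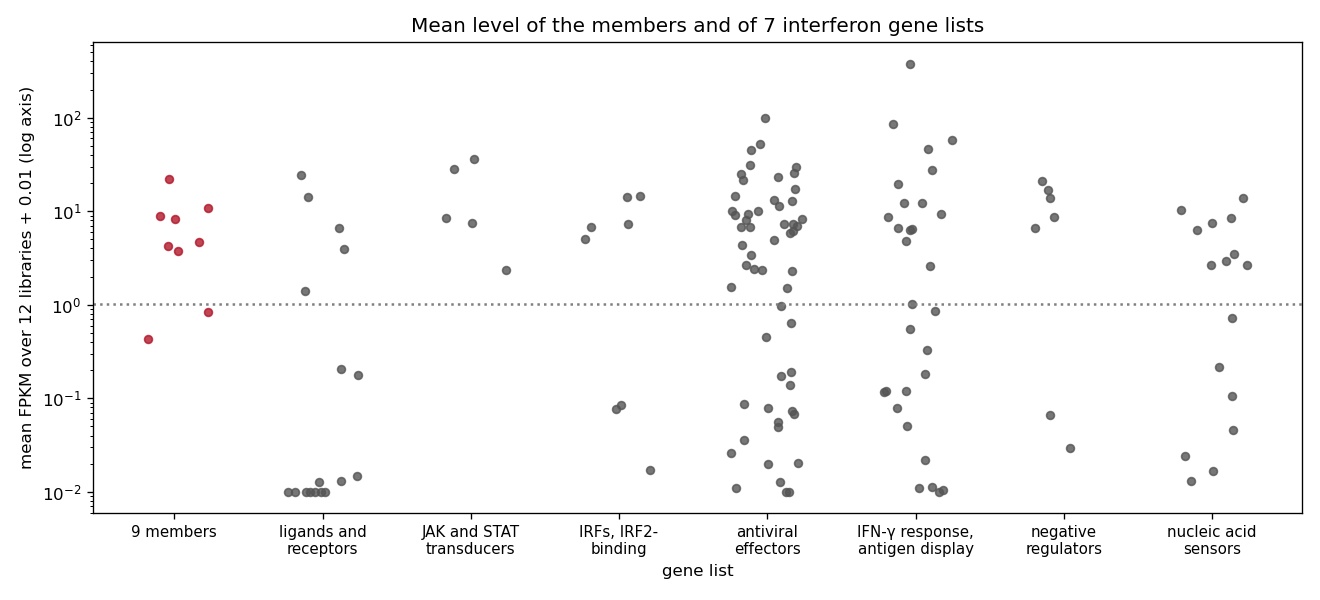
Mean FPKM over 12 libraries plus 0.01 (vertical log axis) of each gene in the member list and in 7 interferon gene lists (horizontal axis); the dotted line marks 1 FPKM and points at the bottom are genes listed at 0. Members run from 0.423 to 22.2 FPKM, and most interferon ligand genes lie at the bottom.

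None of the 83 tested genes of these 7 lists passed the threshold in any of the 6 comparisons in limma without pairing. For β-thalassemic over WT after PBS, 10 of 83 (12.05%) were at an unadjusted p under 0.05, beside 7.66% of all genes, and 57.8% were positive, beside 59.9% of all genes. For apoTf in β-thalassemic Pro-E there was 1 (1.21%, beside 1.43%), with 85.5% positive beside 59.4%, and a median log2 fold change of 0.11 beside 0.03. For apoTf in WT Pro-E there were 8 (9.64%, beside 10.2%), with 57.8% positive beside 59.1%. For β-thalassemic over WT after apoTf there were 7 (8.43%, beside 1.41%), with 78.3% positive beside 54.8%, and a median of 0.10 beside 0.01. The difference in the effect of apoTf gave 6 (7.23%, beside 4.9%), with 53.0% positive beside 42.1%, and genotype over both treatments gave 9 (10.8%, beside 3.42%), with 67.5% positive beside 63.2%. Genes of a list vary together within libraries, so these shares are descriptions and carry no test. Of the genes named, Irf3 and Irf2bp1 had their lowest unadjusted p for apoTf over PBS in WT Pro-E, with log2 fold changes of -0.57 and -0.80 (limma adjusted p = 0.410 for both). For β-thalassemic over WT after PBS these were -0.53 and -0.66. Both comparisons share the PBS WT group, where Irf3 averaged 18.4 FPKM, against 11.8 to 13.7 in the other groups. Irf2bp1 averaged 10.5 FPKM there, against 5.46 to 6.82. The highest PBS WT library was at 23.6 FPKM for Irf3 and 15.6 FPKM for Irf2bp1, so these group means lean in part on a single library per gene.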

How the data were processed

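Per the methods and the labels, the authors used STAR on mm10 with multiply mapping reads dropped, and HOMER for gene counts over exons without regard to strand. The authors deposited FPKM per library, rounded to 3 decimals. Their edgeR fold changes were not used, and tool versions are not given in the sources used here.

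FPKM were used as deposited. Genes with at least 1 FPKM in at least 3 libraries (9650 of 24453) were tested on log2(FPKM + 0.5) with limma 3.58.1 (lmFit, eBayes with trend) in R 4.3.3, with 4 group means over all 12 libraries, two-sided, Benjamini-Hochberg adjustment over all tested genes and a threshold of 0.05. A log2 fold change on this scale understates the change of low genes. Single members were compared with two-sided exact permutation tests of the difference of mean log2(FPKM + 0.5). The limma fit with 4 group means was tested on simulated data, and the exact test of 3 against 3 was checked on random values. The exact test of 6 against 6 was not tested on simulated data. The methods describe each data point as a pool of mice, so p-values measure the spread between pools. The labels do not pair libraries. In the apoTf-treated groups, deviations of same-numbered β-thalassemic and WT libraries correlated at 0.51, 0.25 and 0.46, all over 0.1. Over all groups, 6 of 18 same-number pairs and 12 of 36 other pairs of libraries were over 0.1, with medians of -0.037 and 0.010. The apoTf-treated groups were picked for pairing by this pattern, so the paired p-values are not independent of it. No other pair of groups had all 3 same-number pairs over 0.1, and the paired fit used these 2 groups with the number as a block. The approximate reads behind a member are its FPKM times the library's reads and the length of its transcripts, and cover counting only. Library reads were read from FPKM steps, of which 93.4% to 96.8% per library gave whole reads to within 0.05.

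The 9 members are given in every library. From the 7 other interferon lists, genes were named if past the threshold, or among the 4 per list with the highest mean FPKM, of which 1 is not reported here. Ifnb1, Ifnk, Ifng, Ifnlr1, Socs1 and Socs3 were named after their values were seen. The members and lists were chosen with earlier results of these data known. Alternatives changed the pseudocount (0.1 or 1), the filter (none, or 5 FPKM), the scaling (median ratio or quantile), the trend (none) or the libraries fitted (only those compared, or all but 1), or added replicate number as a block. The exact tests with a library left out, the fit of Ifit1 with no filter and the paired fit of 2 groups were added after seeing the data.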

Additional observations from a re-analysis of the deposited data

How the results depend on the processing

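The count of members past the threshold was 0 in each of the 6 limma comparisons under every alternative but the paired fit of the apoTf-treated groups, which gave 2 members and 213 genes (2, 1 and 0 members, and 87 to 314 genes, with number 1, 2 or 3 left out), where the fit without the block gave 0 and 4. Over all pairs of libraries, and in the 5 other pairs of groups, same numbers did not mark libraries that varied together. With the block in all 12 libraries, 0 members passed in any comparison. Over all genes, the 25 calls for β-thalassemic over WT after PBS became 13 with the block, 8 with a filter of 5 FPKM, 40 with quantile normalization, 9 with only the groups compared and 3 to 90 with a library left out. The 0 calls for apoTf in WT became 446 without PBS WT replicate 2. Over both treatments, the 15 genotype calls became 27 with median-ratio scaling, 28 with quantile normalization and 29 with no filter, and 9 to 35 otherwise. The causes were not tested. In the exact tests of 6 against 6, Stat2 for genotype was at -0.27 with p = 0.05 under median-ratio scaling. With a library left out the log2 difference for genotype ranged from -0.30 to -0.19 for Stat2, 0.23 to 0.46 for Irf1, 0.17 to 0.37 for Bst2 and 0.14 to 0.26 for Ifi35, and that of Ifit1 for apoTf from 0.31 to 0.47. Depth limits Ifit1 and Irf1 most, and 3 libraries a group cannot give an exact p under 0.1.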
